A study of Mus musculus with 16 samples.

Results

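The 10 genes described here encode acute phase proteins, plasma and defence proteins whose output by the liver changes during infection, injury or inflammation. They were taken by gene symbol from the annotated probe sets: the serum amyloid A genes Saa1, Saa2 and Saa3, lipocalin 2 (Lcn2), the orosomucoid genes Orm1 and Orm2, haptoglobin (Hp), haemopexin (Hpx), serum amyloid P component (Apcs) and inter-alpha-trypsin inhibitor heavy chain 3 (Itih3). All 10 were found, each with 1 probe set, among 23279 genes that had a symbol.

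In the classical acute phase response, interleukin-6 reaches hepatocytes through its receptor Il6ra and the shared chain Il6st, and the kinases Jak1 and Jak2 then activate the transcription factor STAT3. Interleukin-1 and tumour necrosis factor act through NF-kB, and factors of the C/EBP family bind the promoters of many of the induced genes. Most of these proteins are secreted by hepatocytes, whereas Saa3 is also made by macrophages and fat cells, and Lcn2 by neutrophils and many epithelia.

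RNA came from the livers of male mice, 16 months old, and was measured with one-colour oligonucleotide arrays, each sample on its own array. Mutant mice combined 2 floxed Axin1 alleles (Axin1 fl/fl) with Alfp-Cre, a transgene that expresses Cre recombinase in hepatocytes of the embryo, so that Axin1, a scaffold of the complex that degrades beta-catenin, is lost in cells descending from these. Tumours of 6 such mice (121, 123, 124, 81, 90 and 93) gave 8 arrays, since mouse 121 contributed 3 tumours: tumour 2, tumour 3 and an unnumbered one. Non-tumoral liver beside tumours, called adjacent liver here, came from 5 mutant mice (121, 123, 124, 81 and 1931), and by these numbers 4 mice gave both tissues. The controls were livers of 3 non-deleted mice (10, 11 and 12) of the same age and sex, whose floxed or Cre alleles the labels do not give. All samples were pieces of whole tissue, in which fewer cells of a type and less RNA per cell cannot be told apart.

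The deposited values were log2 expression values, with array medians between 4.37 and 4.50. The 3 tumours of mouse 121 were averaged for tests, which gave 3 control, 5 adjacent and 6 tumour mice. The probe set of Axin1 read 5.07 to 5.48 in controls, 3.90 to 4.39 in adjacent liver and 3.95 to 4.81 in tumours, so that both mutant groups lay below every control; whether its probes lie in the deleted part is not given in the sources used here. Hepatocyte markers averaged 11.23 to 11.84 on all 16 arrays, and albumin (Alb) ranged from 11.89 to 12.58. Control 10 stood apart from controls 11 and 12: its neutrophil markers averaged 5.86 against 3.52 and 3.60, and its macrophage and Kupffer cell markers averaged 8.11 against 5.52 and 6.16. Differences of the members from controls are therefore given with and without this mouse.

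Promoter sequences are printed for the 3 serum amyloid A genes, Lcn2 and Orm2, because these 5 genes had the widest ranges over arrays of the 10 and because Saa1 and Saa2 followed each other. Each is the run of 250 bases before the gene's start, 5′ to 3′ on the gene's strand, from RefSeq on GRCm38.p6. Capitals mark matches, on either strand, to the C/EBP motif TTGCNNAA.
Saa1, chr7:46742981-46743230, minus strand: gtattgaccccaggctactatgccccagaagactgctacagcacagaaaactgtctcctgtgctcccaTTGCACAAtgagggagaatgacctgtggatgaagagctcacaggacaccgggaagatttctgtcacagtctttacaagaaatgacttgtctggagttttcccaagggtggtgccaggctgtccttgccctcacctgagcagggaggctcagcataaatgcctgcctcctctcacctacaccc
Saa2, chr7:46751583-46751832, plus strand: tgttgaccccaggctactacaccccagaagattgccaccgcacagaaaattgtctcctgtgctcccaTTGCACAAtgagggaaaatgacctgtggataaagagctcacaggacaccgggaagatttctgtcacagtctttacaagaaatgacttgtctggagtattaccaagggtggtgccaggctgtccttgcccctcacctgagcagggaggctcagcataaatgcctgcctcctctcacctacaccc
Saa3, chr7:46715677-46715926, minus strand: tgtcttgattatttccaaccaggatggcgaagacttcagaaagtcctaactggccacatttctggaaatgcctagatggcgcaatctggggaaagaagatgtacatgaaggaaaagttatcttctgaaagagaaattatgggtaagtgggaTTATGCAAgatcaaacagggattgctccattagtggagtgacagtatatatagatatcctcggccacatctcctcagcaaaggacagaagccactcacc
Lcn2, chr2:32387740-32387989, minus strand: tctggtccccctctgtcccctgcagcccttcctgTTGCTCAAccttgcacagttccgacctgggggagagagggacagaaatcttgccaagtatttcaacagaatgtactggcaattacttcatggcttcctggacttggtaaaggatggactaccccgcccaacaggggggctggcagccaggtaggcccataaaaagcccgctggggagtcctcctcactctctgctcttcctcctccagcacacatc
Orm2, chr4:63362199-63362448, plus strand: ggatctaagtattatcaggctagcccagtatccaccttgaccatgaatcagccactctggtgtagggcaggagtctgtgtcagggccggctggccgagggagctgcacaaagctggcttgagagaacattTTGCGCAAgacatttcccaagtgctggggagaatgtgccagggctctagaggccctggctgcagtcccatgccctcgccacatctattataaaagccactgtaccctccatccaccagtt
The Saa1 and Saa2 windows were identical in 238 of 251 aligned columns (94.8%), against 43.5% to 53.2% for all other pairs, and both hold TTGCACAA, beginning at -182 in Saa1 and -183 in Saa2. The match begins at -99 in Saa3 (TTATGCAA, the motif on the opposite strand), at -216 in Lcn2 (TTGCTCAA) and at -120 in Orm2 (TTGCGCAA). Of the 8 members with a promoter in the RefSeq table, 6 held this motif, the sixth being Hpx (TTGCTGAA at -200), compared with 9.56% of 32851 promoters of the same length. The STAT motif TTCNNNGAA was found in Apcs alone (TTCTAGGAA at -244; 7.02% of all promoters), and the NF-kB motif, spelled GGG, any 2 bases, TTTCC, in none (1.41%). None of these matches overlapped another. They describe letters in a window and were not tested as binding sites.

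The question for these genes was how their RNA differed between control liver, adjacent liver and tumours, and how far 1 control mouse set the answer. None of the 10 passed an adjusted p of 0.05 in any of the 3 comparisons in limma's moderated test with Benjamini-Hochberg adjustment over all genes, with or without control 10. Among all genes 0% passed in adjacent against control liver, 0.155% (36 genes) in tumour against adjacent liver and 0.0258% (6 genes) in tumour against control, and 0.0043%, 0.0644% and 0.043% without control 10. The count of 36 changed in other fits. It was 206 when all 16 arrays entered separately with mouse as a random replicate block. Among only the 4 mice with both tissues, compared pairwise with mouse as a fixed term, it was 0. Both fits also changed which arrays entered or how, so the change cannot be assigned to the pairing. At an unadjusted p under 0.05 in limma's test the members counted 0, 0 and 1 in the 3 comparisons (Saa3, lower in tumours than in controls). Without control 10 they counted 0, 2 (Lcn2 higher and Saa3 lower in tumours than in adjacent liver) and 1 (Lcn2, higher in tumours than in controls). Over all genes the shares were 4.55%, 15.3% and 12.5%, and 4.92%, 15.4% and 13.4% without control 10, so the counts of members were near the background. Groups did not overlap in 0 of 10 members in each comparison, beside 4.22%, 2.23% and 5.18% of all genes in the same order.

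**Figure D1:**
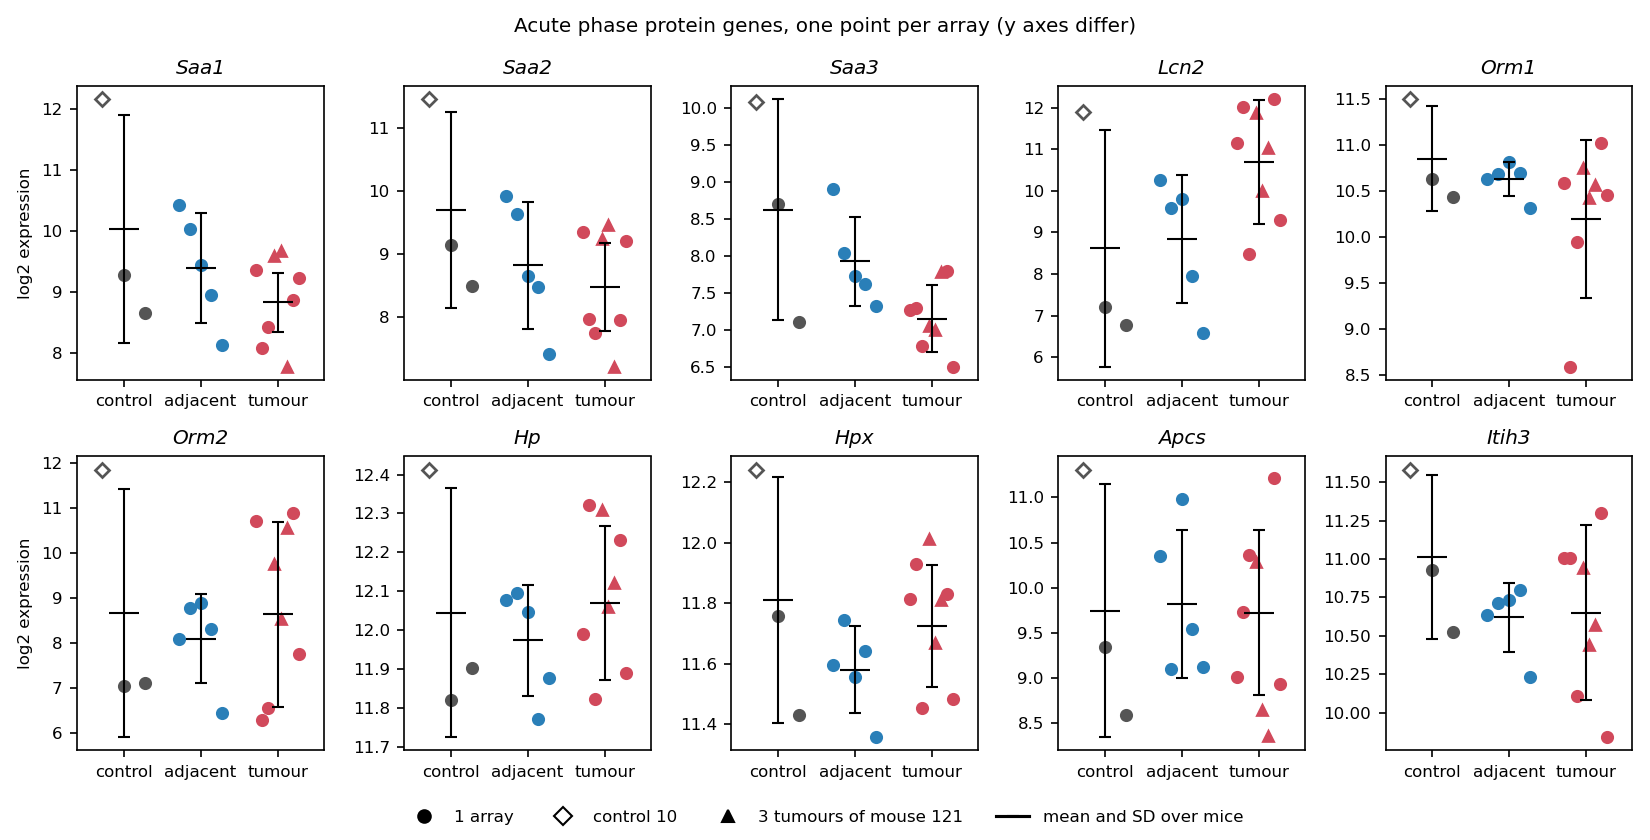
Log2 expression (y axis, scale differs by panel) of the 10 genes in control liver, adjacent liver and tumours (x axis). Each point is 1 array, the open diamond is control 10, triangles are the 3 tumours of mouse 121, and the bar gives the mean and SD over 3, 5 and 6 mice. Control 10 is the highest of the 16 arrays in 9 panels, and Lcn2 is the exception.

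Saa1 and Saa2 encode the 2 circulating serum amyloid A proteins, which travel on high-density lipoprotein. Their sequences are near-identical copies, so probes may read both, and their values are uncertain as separate measurements. Saa1 read 12.15, 9.28 and 8.66 in controls 10, 11 and 12, and 10.03, 9.44, 8.96, 8.14 and 10.42 in adjacent liver of mice 121, 123, 124, 1931 and 81. The 8 tumours ran from 7.79 (tumour 2 of mouse 121) through a median of 9.05 to 9.68 (tumour 3 of the same mouse). All groups overlapped, and every tumour lay below control 10.

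The Saa1 difference was -0.63 (SE 0.65) for adjacent liver minus control on the log2 scale, and -1.20 (SE 0.63, limma adjusted p 0.455) for tumour minus control. Without control 10 these became 0.43 (SE 0.50) and -0.14 (SE 0.49), so the first changed sign. The mean was 10.03 ± 1.86 in controls (SD, n = 3), 9.40 ± 0.90 in adjacent liver (SD, n = 5) and 8.83 ± 0.49 in tumours (SD, n = 6). Tumour minus adjacent liver gave a difference of -0.57 (SE 0.54, limma adjusted p 0.673). Saa1 thus ordered control, adjacent, tumour by mean, with all controls. The 95% intervals between neighbours in that order included 0, at -2.02 to 0.76 and -1.72 to 0.58.

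Saa2 followed the same arrays, with 11.46, 9.16 and 8.49 in controls 10, 11 and 12 and 9.64, 8.66, 8.48, 7.41 and 9.93 in adjacent liver of mice 121, 123, 124, 1931 and 81. Tumours ranged from 7.22 to 9.46 around a median of 8.59, again with tumours 2 and 3 of mouse 121 at the extremes. Adjacent liver minus control was -0.88 (SE 0.65) with control 10 and 0.00034 (SE 0.59) without it, and tumour minus control was -1.22 (SE 0.63) and -0.34 (SE 0.58). The tumour difference from control therefore shrank to within its own SE once control 10 was left out.

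Saa3, the family member known from macrophages and fat cells, read 10.08, 8.71 and 7.10 in controls 10, 11 and 12. Adjacent liver gave 8.05, 7.73, 7.63, 7.33 and 8.91 for mice 121, 123, 124, 1931 and 81, and tumours 6.51 to 7.79 with a median of 7.16. All 6 tumour means lay below the mean of adjacent liver and below that of controls, but the groups overlapped. Tumour minus adjacent liver was -0.77 (SE 0.42, limma adjusted p 0.413) and tumour minus control -1.48 (SE 0.50, limma adjusted p 0.228).
Without control 10 the second was -0.75 (SE 0.44, limma adjusted p 0.478), about as large as the difference from adjacent liver. Of 14 macrophage and Kupffer cell markers, 7 were higher and 7 lower in tumour than in adjacent liver, with a median of -0.07. They ran from -2.52 in Vsig4 to 2.06 in Gpnmb, with Clec4f at -1.85 and Adgre1 at 0.24, and none passed the threshold. Vsig4 and Gpnmb were named after their values were seen, and the part of these cells in the Saa3 values was not tested.

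Lcn2, an iron-siderophore-binding protein of neutrophil granules and stressed epithelia, had the largest differences of the 10 genes in both comparisons of tumours. Controls 11 and 12 read 7.20 and 6.76 and control 10 read 11.89. Adjacent liver gave 9.58, 9.81, 7.96, 6.58 and 10.26 for mice 121, 123, 124, 1931 and 81, and the 8 tumours ran from 8.47 (tumour 93) through a median of 11.09 to 12.20 (tumour 123). Each tumour was therefore above controls 11 and 12, while 6 of 8 lay below control 10 and adjacent and tumour values overlapped.

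With all controls, Lcn2 was 0.22 (SE 1.16) higher in adjacent liver than in controls and 2.07 (SE 1.12, limma adjusted p 0.472) higher in tumours. Without control 10 the differences were 1.86 (SE 1.03, limma adjusted p 0.999) and 3.71 (SE 1.01, limma adjusted p 0.145), with 6 of 6 tumour mice above both controls. Lcn2 was then the only member whose tumour and control groups did not overlap, as was so in 14% of all genes in either direction and in 5.32% with tumours higher. Adjacent and control groups overlapped in all 10 members, beside 10.6% of genes without overlap. Tumour minus adjacent liver was 1.85 (SE 0.96, limma adjusted p 0.386). When 1 further mouse was left out as well, this tumour minus control difference lay between 3.405 (without tumour 123) and 4.15 (without tumour 93), and over all settings without control 10 the limma adjusted p ran from 0.0592 to 0.553.

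Orm1 and Orm2 encode orosomucoid, an acidic glycoprotein that carries drugs and steroids in plasma; they too are close copies whose probes may cross-react. Orm2 read 11.84 in control 10 and 7.04 and 7.12 in controls 11 and 12, and 8.77, 8.89, 8.31, 6.44 and 8.08 in adjacent liver of mice 121, 123, 124, 1931 and 81. Tumours spread over 6.30 to 10.89 with a median of 9.13. Tumours 123, 81 and 2 of the 3 of mouse 121 were above every adjacent liver, whereas tumour 90 was below all of them.

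The Orm2 mean was 8.67 ± 2.75 in controls (SD, n = 3), 8.10 ± 0.98 in adjacent liver (SD, n = 5) and 8.64 ± 2.04 in tumours (SD, n = 6). Tumour minus control was -0.03 (SE 1.17) with control 10 and 1.56 (SE 1.10, limma adjusted p 0.568) without it, and adjacent minus control was -0.57 (SE 1.21) and 1.02 (SE 1.13). Both comparisons changed sign, and their 95% intervals included 0. Without control 10 the interval was -0.81 to 3.93 for tumour minus control and -1.41 to 3.45 for adjacent minus control.

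Orm1 moved over a narrower range, at 11.49, 10.63 and 10.43 in controls 10, 11 and 12 and 10.69, 10.81, 10.69, 10.32 and 10.63 in adjacent liver of mice 121, 123, 124, 1931 and 81. Its tumours lay between 8.59 (tumour 90) and 11.02 with a median of 10.51. Tumour 93, at 9.945, also lay below every adjacent liver and every control. Adjacent minus control was -0.22 (SE 0.41), and 0.10 (SE 0.45) without control 10; tumour minus control was -0.66 (SE 0.40), and -0.33 (SE 0.44) without it.

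Hp binds free haemoglobin and Hpx binds free haem, and both had small spreads. Hp read 12.41, 11.82 and 11.90 in controls 10, 11 and 12, 11.77 to 12.10 in adjacent liver and 11.82 to 12.32 in tumours. Hpx read 12.24, 11.76 and 11.43 in the controls, 11.36 to 11.75 in adjacent liver and 11.45 to 12.01 in tumours. Every difference of these 2 genes between groups was within 0.23 on the log2 scale, with or without control 10, and the 95% interval for Hp in tumour minus control was -0.29 to 0.34.
Both genes lie near the top of the deposited scale, whose highest value was 12.85, and how far such readings are compressed was not tested.

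Apcs, a pentraxin that binds amyloid and is a major acute phase protein in mice, read 11.30, 9.34 and 8.60 in controls 10, 11 and 12. Adjacent liver gave 9.11, 10.98, 9.55, 9.12 and 10.35 for mice 121, 123, 124, 1931 and 81, and tumours 8.36 to 11.22 with a median of 9.37. Mouse 123 was the highest in adjacent liver and in tumours alike. Differences were 0.07 (SE 0.63) for adjacent minus control, -0.09 (SE 0.52) for tumour minus adjacent and -0.02 (SE 0.61) for tumour minus control, and the first and last were 0.85 (SE 0.61) and 0.76 (SE 0.60) without control 10.

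Itih3, a heavy chain that is linked to hyaluronan, read 11.58, 10.93 and 10.53 in controls 10, 11 and 12 and 10.71, 10.73, 10.80, 10.23 and 10.64 in adjacent liver of mice 121, 123, 124, 1931 and 81. Tumours ranged from 9.84 (tumour 124) to 11.30 (tumour 123) with a median of 10.76. The 3 group differences were -0.39 (SE 0.31), 0.03 (SE 0.25) and -0.36 (SE 0.30) in the order adjacent minus control, tumour minus adjacent and tumour minus control. Without control 10 the first and last shrank to -0.11 (SE 0.33) and -0.077 (SE 0.32).

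Control 10 was the highest of all 16 arrays in 9 of the 10 members, a position it held in 6.59% of all genes. In Lcn2 its rank was 3, below tumours 123 and 90. Against the mean of controls 11 and 12 it was higher by 4.91 in Lcn2, 4.76 in Orm2 (27.1-fold), 3.18 in Saa1 (9.09-fold), 2.64 in Saa2, 2.33 in Apcs and 2.18 in Saa3. The remaining 4 members differed by less than 2-fold, from 0.97 in Orm1 to 0.55 in Hp. The median over members was 2.26, beside -0.05 over all genes, and 6 members were at least 2-fold higher, beside 3.12% of all genes. This is 1 mouse, and the members were chosen with earlier results of these data known, so the values and shares carry no test.

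**Figure D2:**
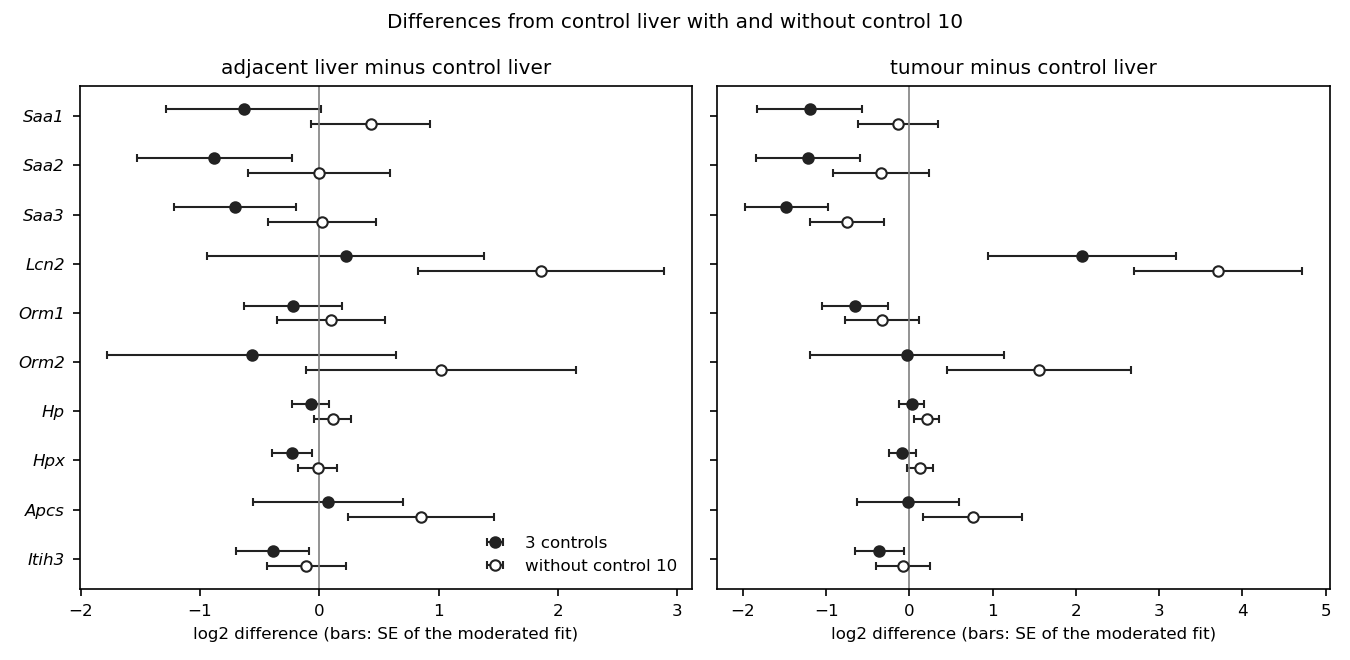
Log2 difference from control liver (x axis) of each gene (y axis) for adjacent liver (left) and tumours (right). Filled circles use all 3 controls, open circles leave out control 10, and bars are the SE of limma's fit. Leaving out control 10 moves every member to the right, by 0.18 to 1.64.

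The direction of most differences between adjacent and control liver depended on this mouse. With it, 2 of 10 members were higher in adjacent liver and 8 lower, and without it 8 were higher and 2 lower; over all genes 48.5% and 47.7% had a difference above 0. The sign turned in 6 members, Saa1, Saa2, Saa3, Orm1, Orm2 and Hp. For tumours against control the counts were 2 higher and 8 lower with control 10 (42.2% of all genes above 0) and 5 and 5 without it (42.4%), and the sign turned in Orm2, Hpx and Apcs. These comparisons share their control samples. Tumour against adjacent liver had 5 members higher and 5 lower, beside 44% of all genes above 0. Its differences use no control, but its SEs share the spread of all groups in the fit. Leaving out control 10 took the SE of Lcn2 from 0.96 to 0.75 and that of Saa3 from 0.42 to 0.33. Their unadjusted limma p were then 0.027 and 0.033 (limma adjusted p 0.253 and 0.274).

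Control 10 was the highest array in most neutrophil and macrophage markers, but in few or none of the other cell lists. Means of the other lists shifted less. Lymphocyte markers averaged 4.52 there against 4.22 and 4.11 in controls 11 and 12, and endothelial markers 6.93 against 6.77 and 6.50. Hepatocyte markers averaged lower, at 11.62 against 11.84 and 11.80, as did cholangiocyte markers, at 3.97 against 4.20 and 4.20. Control 10 was the highest array in 0 of 9 lymphocyte, 0 of 10 hepatocyte, 0 of 5 cholangiocyte and 0 of 9 stellate cell and fibroblast markers. It was highest in 0 of 8 endothelial and 1 of 6 adipocyte and mesothelial markers, beside 6.59% of all genes. Of 13 neutrophil markers measured, 11 were highest in it, and S100a8, a calcium-binding protein of neutrophils, read 8.71 there against 3.54 and 3.34 in controls 11 and 12. Some markers, chosen after their values were seen, were lower in control 10 than in controls 11 and 12. Ly6g of the neutrophil list read 2.995 against 3.236 and 3.076, and Gpnmb of the macrophage list 3.76 against 4.17 and 4.49. The mean of the neutrophil list was 3.46 to 3.73 in adjacent liver and 3.44 to 4.15 in tumours. Of 14 macrophage and Kupffer cell markers 11 were highest in control 10, including Adgre1 at 8.54 against 5.95 and 4.99. The list averaged 5.90 to 6.97 in adjacent liver and 5.51 to 6.89 in tumours. No marker is at 0 on this scale. The lists were also chosen with earlier results of these data known, and the part of neutrophils and macrophages in the acute phase values was not tested.

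**Figure D3:**
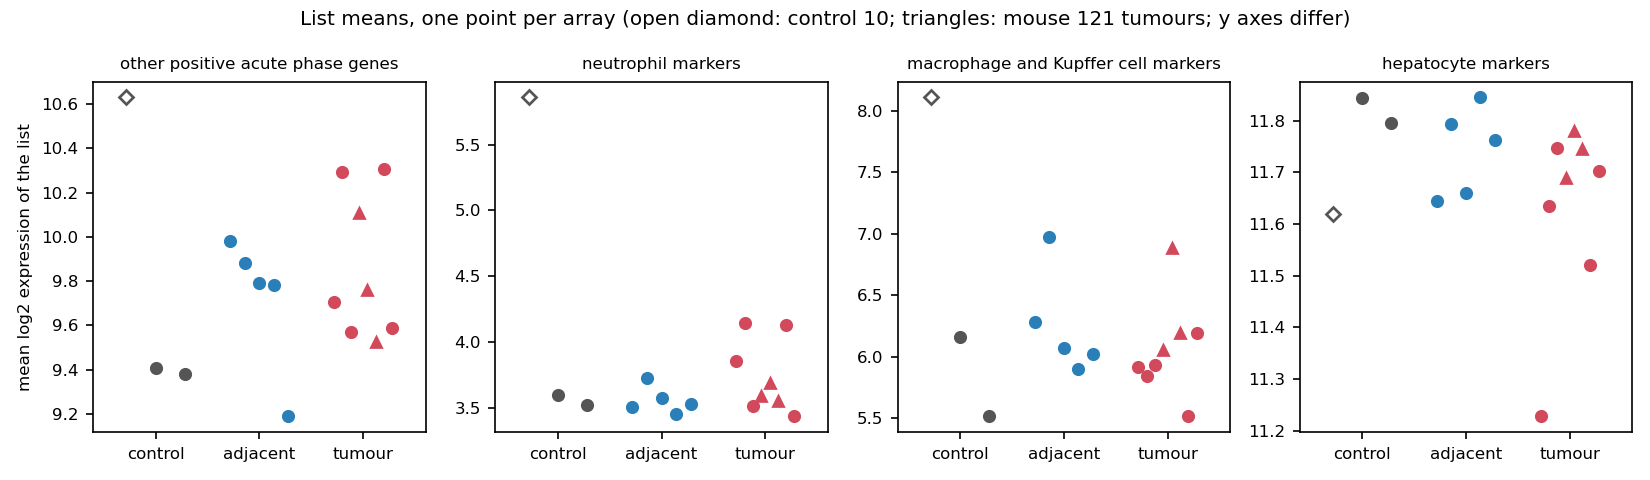
Mean log2 expression (y axis, scale differs by panel) of 4 gene lists on each array, by tissue (x axis). Control 10 (open diamond) is the highest array for other positive acute phase genes, neutrophil markers and macrophage markers, whereas for hepatocyte markers it lies below controls 11 and 12.

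Within single animals, Lcn2 was the only member higher in tumour than in own adjacent liver in 4 of 4 mice, by 1.38 in mouse 121 (mean of 3 tumours), 2.39 in 123, 1.35 in 124 and 0.89 in 81. Over all genes 9.96% were higher in 4 of 4 mice and 13% lower. Saa1 was lower in tumour in 3 of the 4 mice (-1.02, -0.57 and -1.05 in 121, 123 and 81) and 0.27 higher in 124. Saa3 was lower in 3 (-0.77, -1.12 and -1.63 in 121, 124 and 81) and 0.06 higher in 123.
Orm2 was higher by 0.84 to 2.62 in mice 121, 123 and 81 and differed by -0.55 in 124. Saa2 had the signs of Saa1 in each mouse, while Hp and Hpx stayed within 0.27 of adjacent liver in all 4. By mouse, tumour exceeded adjacent liver in 8 members in mouse 123 and in 4 members in each of mice 121, 124 and 81. The shares over all genes by mouse are not given here.

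**Figure D4:**
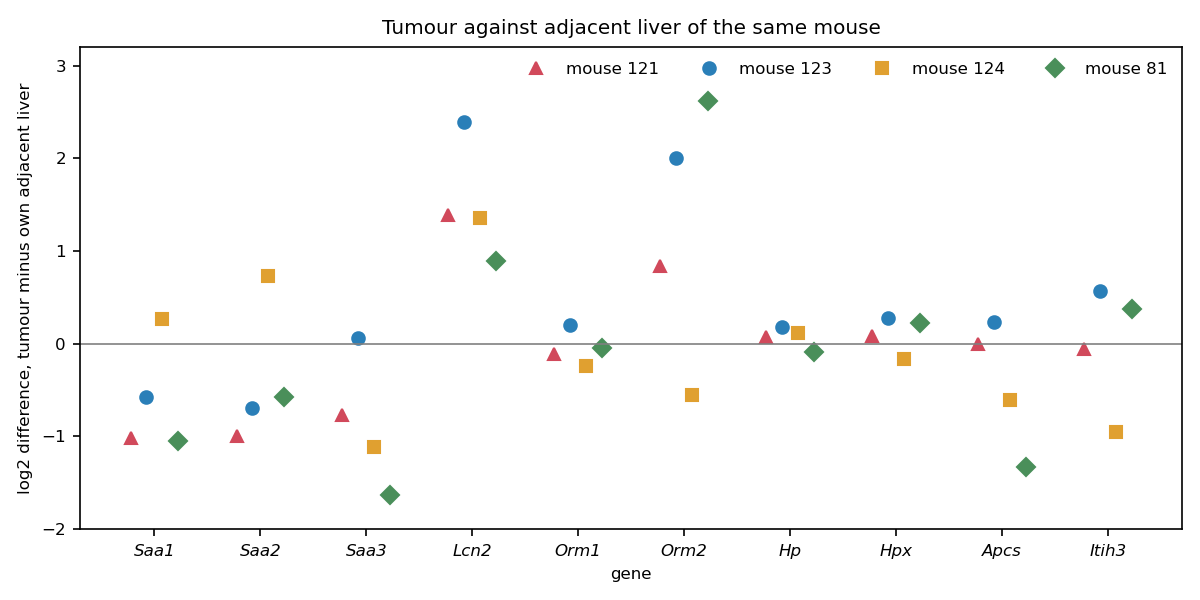
Log2 difference between tumour and the adjacent liver of the same mouse (y axis) for each gene (x axis). Each point is 1 mouse, with the 3 tumours of mouse 121 averaged. All 4 points are above 0 for Lcn2 only, between 0.89 and 2.39.

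The 8 tumours differed from each other in which members they held high. Tumour 123 was the highest tumour in 6 members and above every adjacent liver in 7 (Lcn2, Orm1, Orm2, Hp, Hpx, Apcs and Itih3). Tumour 90 combined a Lcn2 value of 12.02 with the lowest Orm1 and Orm2 of all tumours, 8.59 and 6.30. Tumour 81 held Lcn2 at 11.15 and Orm2 at 10.70 but Apcs at 9.01, below every adjacent liver. Tumour 93 was the lowest tumour in 3 members, Lcn2 (8.47), Hp and Hpx. It was above every adjacent liver in 0 members, as were tumour 124 and tumour 3 of mouse 121. Shares over all genes are not given here for these counts, so they describe the members alone.

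The 3 tumours of mouse 121 show the spread within 1 animal. Saa1 read 7.79 in tumour 2, 9.68 in tumour 3 and 9.59 in the unnumbered tumour, a range of 1.90, compared with 1.28 between the 6 mouse means. Saa2 had a range of 2.24 within this mouse and 1.61 between mice. In the other 8 members the range between mice was the larger; over all genes 22.4% had the larger range within mouse 121. Lcn2 was above the adjacent liver of this mouse in all 3 tumours, by 1.45 in tumour 2, 0.42 in tumour 3 and 2.28 in the unnumbered tumour, and Saa1, Saa2 and Saa3 were below theirs in all 3.

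Among adjacent livers, that of mouse 1931 was the lowest of 5 in 8 of the 10 members, all except Hp and Apcs. Adjacent liver 81 was the highest in 4 members, Saa1, Saa2, Saa3 and Lcn2. The shares of all genes with these ranks are not given here, and Saa1 with Saa2 and Orm1 with Orm2 may not be separate readings. The mean of the 10 members was 8.88 in adjacent liver 1931, 9.58 to 10.29 in the other 4, 9.10 and 9.59 in controls 12 and 11, and 9.17 to 10.53 in tumours; in control 10 it was 11.65.

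The rest of the pathway was described with 7 lists, and markers of other cells with 8. Of the 160 list genes measured, 0 passed the threshold in limma's test in any comparison, with or without control 10. Of 21 other positive acute phase genes, 0, 5 and 3 had an unadjusted p under 0.05 in adjacent against control, tumour against adjacent and tumour against control, beside the shares of 4.55%, 15.3% and 12.5% over all genes given above. Their median differences were -0.06, -0.08 and -0.07, beside -0.01, -0.03 and -0.04 over all genes, and without control 10 the first and last became 0.20 and 0.31. The list averaged 10.63 in control 10, 9.38 and 9.41 in controls 12 and 11, 9.19 to 9.98 in adjacent liver and 9.52 to 10.31 in tumours.

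Orm3, another orosomucoid gene, read 8.99 in control 10, 3.53 and 4.11 in controls 11 and 12, 4.78 to 6.50 in adjacent liver and 3.98 to 6.40 in tumours. Without control 10 it was 1.99 (SE 0.50, limma adjusted p 0.752) higher in adjacent liver than in controls. Saa4, the constitutive serum amyloid A gene, was at 6.20 in tumour 81 and at 9.07 to 9.94 in the other tumours, with 9.77 to 10.85 in adjacent liver. Cd14, a co-receptor for bacterial lipopolysaccharide that was chosen after its values were seen, was 3.16 (SE 0.78, limma adjusted p 0.0843) higher in tumour than in adjacent liver. Its highest tumour was 123, at 10.34, which was also the highest in Lcn2.

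Negative acute phase genes, whose output falls in the classical response, had medians of -0.04, -0.05 and -0.06 over 12 genes in the order adjacent minus control, tumour minus adjacent and tumour minus control, and the first and last were -0.03 and -0.07 without control 10. Alb differed between tumour and adjacent liver by 0.01 (SE 0.11) and transthyretin (Ttr) by -0.12 (SE 0.08). In this comparison 4 of the 12 were higher and 8 lower, and 2 had an unadjusted p under 0.05 in limma's test, beside 15.3% of all genes. They ran from -1.19 (SE 0.31, limma adjusted p 0.0929) in Pon1, chosen after its values were seen, to 0.27 in Apom. In control 10 the list averaged 11.22, against 11.25 to 11.32 in controls 11 and 12.

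Medians of the upstream lists lay between -0.11 and 0.26, while single genes went both ways. Over 10 inducing cytokines the medians were -0.03, 0.04 and -0.03 in the same order (0.04 and 0.02 against controls without control 10), and Il6 itself lay at 2.26 to 2.76 on every array, near the low end of the scale. In tumour minus control 4 of them were higher and 6 lower, and 6 and 4 without control 10. The highest was Clcf1, chosen after its values were seen, at 0.99 (SE 0.24, limma adjusted p 0.127). Without control 10 it was at 1.34, and the lowest limma adjusted p of the list was 0.0512. Il1a, an interleukin-1 gene, read 6.49 in control 10 against 5.38 and 4.57 in controls 11 and 12. Over 12 cytokine receptors the medians were 0.01, -0.10 and -0.11, and without control 10 those against controls were 0.02 and 0.05, so the last changed sign. Among them Il6st differed between tumour and adjacent liver by -0.67 (SE 0.15, limma adjusted p 0.0718) and Il6ra by -0.68 (SE 0.26, limma adjusted p 0.231). Chosen after their values were seen, Il1rap, the accessory chain of the interleukin-1 receptor, differed by -1.38 (SE 0.39) and Osmr, the oncostatin M receptor, by 1.002 (SE 0.47), with limma adjusted p of 0.114 and 0.323.
Over 11 signalling and transcription factors the medians were 0.01, 0.01 and 0.18 (0.07 and 0.22 against controls without control 10), with Jak1 at 0.01 (SE 0.13) and Jak2 at 0.22 (SE 0.19) in tumour minus adjacent liver. Over 12 feedback and immediate target genes they were -0.11, 0.14 and 0.11, and 0.09 and 0.26 against controls without control 10, which turned the sign of the first. Socs3, the STAT3-induced inhibitor of this pathway, was at 5.22 in control 10, 4.21 and 4.50 in controls 11 and 12, and differed between tumour and adjacent liver by -0.09 (SE 0.23); Socs1 differed by 0.16 (SE 0.16).

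Receptors and partners of the proteins numbered 12, with medians of -0.17, 0.25 and -0.05; without control 10 those against controls turned to 0.02 and 0.19. Cd163, which takes up haptoglobin with haemoglobin, read 6.04 in control 10, 4.77 and 4.30 in controls 11 and 12, 3.93 to 4.90 in adjacent liver and 3.29 to 4.01 in tumours. Lrp1, which takes up haemopexin with haem, differed between tumour and adjacent liver by -0.65 (SE 0.14, limma adjusted p 0.0691).

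For the cell markers, medians of tumour minus adjacent liver were 0.08 over 13 neutrophil markers, -0.07 over 14 macrophage and Kupffer cell markers, -0.03 over 9 lymphocyte markers and -0.08 over 10 hepatocyte markers. They were 0.26 over 5 cholangiocyte markers, 0.62 over 9 stellate cell and fibroblast markers, -0.05 over 8 endothelial markers and -0.09 over 6 adipocyte and mesothelial markers. S100a8 and S100a9 read 6.16 and 8.34 in tumour 123 and 6.04 and 8.03 in tumour 90, the 2 tumours with the highest Lcn2, whereas in tumour 121 (unnumbered), with Lcn2 at 11.87, they read 3.51 and 5.30. In tumour 81, with Lcn2 at 11.15, they read 6.07 and 5.42. The granule genes Camp, Ngp and Mpo of the same list, chosen after their values were seen, read 2.40, 2.56 and 4.01 in tumour 90 and 2.82, 2.77 and 3.84 in tumour 123. None of these was above the highest adjacent liver (2.86, 3.30 and 4.17). Itgam and Csf3r of the same list, also chosen after their values were seen, went the other way. They read 6.21 and 4.35 in tumour 90 and 4.27 and 4.93 in tumour 123, above the highest adjacent liver (4.13 and 4.11). Collagen genes Col1a1 and Col1a2 were 1.25 (SE 0.38) and 1.09 (SE 0.33) higher in tumour than in adjacent liver, with limma adjusted p of 0.137 and 0.140, while Lrat and Dcn of the same list differed by -1.06 and -0.66 (limma adjusted p 0.123 and 0.162). The part of these cells in the member values was not tested.
The remaining named markers differed in tumour minus adjacent liver by 0.24 (Adgre1), 0.04 (Cd3e), 0.03 (Cd3g), -0.03 (Apoa1), -0.05 (Krt19), 0.33 (Krt7), 1.03 (Pecam1), 0.84 (Cdh5), -0.07 (Adipoq) and -0.07 (Plin1) on the log2 scale. The sinusoidal endothelial genes Clec4g and Stab2 differed by -2.41 and -1.31, and like Lrat and Dcn they were chosen after their values were seen.

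Genes with the most similar pattern to the mean of the members' standardised values were ranked by Pearson correlation over 14 mouse values, as a description. The highest were Cmklr1 (r = 0.912), a chemerin receptor, Trim34a (0.892), Ctsc (0.890), a lysosomal protease, Serpina10 (0.870), Alox5ap (0.859) and Ocrl (0.858), from 11115 candidates. All 6 were highest in control 10, and without it over 13 values r was 0.824, 0.801, 0.806, 0.678, 0.624 and 0.677. For Saa3 they were Pxk (r = 0.927), Snord15b (0.843), Atp11a (0.838), Zdhhc14 (0.822), Tent5c (0.812) and Marco (0.805), a macrophage scavenger receptor. Without control 10, Pxk stayed at 0.930 and Marco was at 0.540.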

How the data were processed

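RNA was extracted with Trizol, amplified as cDNA and biotin-labelled before hybridisation, per the labels' protocols. The deposited values are log2 expression values; the submitters' processing notes name RMA and Partek with no version or order. The sources used here give neither the chip model nor a genome build. RMA equalises array distributions and compresses dim probe sets. Of 24479 probe sets, 23281 had 1 symbol, 0 several and 1198 none; where a symbol had more than 1 probe set the one with the higher mean was kept, leaving 23279 genes.

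Groups came from sample titles, whose numbers name separate mice. All groups were fitted in 1 model with limma (version 3.58.1, R 4.3.3; lmFit, eBayes with intensity trend), on log2 values with no block. Benjamini-Hochberg adjustment ran over the whole table, with a threshold of 0.05. The fit was tested on simulated data. Mice 121, 123, 124 and 81 gave both tissues, as the titles show. Deviations of such pairs from group means correlated at 0.0789 on average. Those of tumour 93 and adjacent liver 1931 correlated at 0.317, the highest of all pairings of a tumour mouse with an adjacent liver. The reason was not tested. No batch is labelled. The number of arrays limits precision.

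The members and 15 gene lists (173 entries, 169 genes, of which 160 were matched and 9 were not used here) were chosen with earlier results of these data known. Named genes are the members, Axin1, from every list at most 4 genes that passed or, failing that, its first 2 measured genes, and the 6 genes most like the member mean and Saa3. Alternatives were the mouse as block, quantile normalisation, median centring, a filter (above 4.43 on at least 3 arrays), no trend, only the compared groups, other treatments of mouse 121 and leaving out each mouse; those repeated without control 10 were added after the data were seen. Promoter windows come from a RefSeq table and were searched with Python 3.11.15.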

Additional observations from a re-analysis of the deposited data

Results flagged for a closer look

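In Itih3, adjacent liver of mouse 1931 (10.23) lay below the nearest of the other 4 adjacent livers (10.64) by 0.714 of the group's range, just above Dixon's critical value of 0.71. It was the only such sample among 20 groups of the members tested, and chance gives about 1 in 20.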

How the results depend on the processing

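No member passed the threshold of limma's adjusted p in any alternative run; the lowest member value was 0.892 in adjacent against control, 0.113 in tumour against adjacent and 0.145 in tumour against control, or 0.0592 (Lcn2) where control 10 and tumour 93 were both left out. Over 22, 23 and 22 alternatives, the sign of a member's difference was kept in 206 of 220, 218 of 230 and 203 of 220 values. These include leaving out each mouse but not the alternatives repeated without control 10. Leaving out control 10 alone turned 6 of 10 signs in adjacent minus control and 3 of 10 in tumour minus control. With the mouse as fixed replicate block in the 4 pairs, Lcn2 in tumour minus adjacent was 1.504 (limma adjusted p 0.113) and Itih3 -0.019; as random replicate block, Lcn2 was 1.89 and Orm2 in tumour minus control 0.15. The block changed no member's call. Signs also turned for Itih3 in tumour minus adjacent with median centring (-0.0077), Orm2 in tumour minus control with 8 separate tumours (0.21), and Apcs in tumour minus control with quantile normalisation (0.0038) and, with only the unnumbered tumour of mouse 121, in tumour minus adjacent (0.10) and tumour minus control (0.18).

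Leaving out 1 mouse at a time gave, for adjacent minus control, -1.32 to 0.43 in Saa1, -1.48 to 0.00034 in Saa2, -1.47 to 0.022 in Saa3, -0.70 to 1.86 in Lcn2, -0.43 to 0.10 in Orm1, -1.38 to 1.02 in Orm2, -0.18 to 0.11 in Hp and -0.50 to 0.85 in Apcs. For tumour minus adjacent it gave -0.39 to 0.20 in Apcs and -0.10 to 0.19 in Itih3, and 1.28 to 2.29 in Lcn2. For tumour minus control it gave -0.84 to 1.56 in Orm2, -0.087 to 0.21 in Hp, -0.28 to 0.13 in Hpx and -0.60 to 0.76 in Apcs. Control 10 set one end of each range against controls; the causes of the other changes were not tested. Genes past the threshold in tumour against adjacent ran from 5 to 743 (without tumour 93) when 1 mouse was left out, and in tumour against control from 0 (without control 12) to 242 (without tumour 93). Without tumour 93, 15 list genes passed in tumour against adjacent, Cd14 and Il6st among them, and 4 in tumour against control (Clcf1, Emcn, Itih1 and Pon1). Emcn and Lrp1 passed in tumour against adjacent with the random replicate block, and with Il6st under the filter or with only the unnumbered tumour of mouse 121; Acta2 passed in tumour against control with only these 2 groups. In runs without control 10, Clcf1 passed in tumour against control with separate tumours, median centring or the random replicate block. It also passed there when adjacent liver 121, tumour 90 or tumour 93 was left out as well. Acta2 passed without control 10 with only the 2 groups, and Cdh5, Emcn and Tlr2 when tumour 93 was also left out. These genes were named after their values were seen, except Il6st, Lrp1 and Cdh5. With 3 controls, 1 mouse decides the reference level of these genes.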
